A study of Homo sapiens with 30 samples.

Results

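The transcripts described here encode 10 surface ligands through which natural killer (NK) cells, T cells and macrophages read a myeloma cell: MICA, MICB, ULBP1, ULBP2, ULBP3, PVR, PVRL2, CD274, PDCD1LG2 and CD47. They were chosen by gene symbol, 10 of the 25680 symbols listed, and where a symbol had several transcripts the one with the highest mean count was used. OPM2 and H929, established lines of human multiple myeloma cells, were compared after a 24 h exposure to dBRD9-A at 100 nM or to its solvent DMSO. dBRD9-A is a compound that degrades the chromatin protein BRD9. Each of the 4 groups, OPM2 with DMSO, OPM2 with dBRD9-A, H929 with DMSO and H929 with dBRD9-A, held 3 libraries. Both are lines of the same disease. Another 18 of the 30 samples listed were not analysed here. Of the 10 ligands, 9 passed the filter on low counts and were tested, and ULBP2 did not.

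The ligands fall into 4 sets by receptor. MICA, MICB and the ULBP proteins are stress-induced relatives of MHC class I molecules that bind NKG2D, an activating receptor of NK cells and CD8 T cells. PVR (CD155) and PVRL2 (nectin-2, CD112) bind the activating receptor DNAM-1 (CD226), and compete for it with inhibitory receptors, TIGIT for both and PVRIG for PVRL2. CD274 (PD-L1) and PDCD1LG2 (PD-L2) bind PD-1 and restrain T cells. CD47 binds SIRP alpha on macrophages and restrains phagocytosis. In myeloma, NK cells are known to kill plasma cells through NKG2D and DNAM-1, and CD274 is known to be induced by interferon gamma through STAT and IRF factors.

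Promoter sequence was available for 9 of the 10 genes in a RefSeq table of the GRCh38.p14 build, as 300 bases reaching from 250 before to 50 after the annotated start. The build differs from that of the count files, so the table was used only for sequence. CD274 (chr9:5450292-5450591, plus strand) is shown because its transcript rose with dBRD9-A in both lines. The capitals mark matches to the core of the interferon-stimulated response element, which is GAAA, any 2 bases and GAAA on either strand, and to the STAT-binding GAS site, TTCNNNGAA.
CD274: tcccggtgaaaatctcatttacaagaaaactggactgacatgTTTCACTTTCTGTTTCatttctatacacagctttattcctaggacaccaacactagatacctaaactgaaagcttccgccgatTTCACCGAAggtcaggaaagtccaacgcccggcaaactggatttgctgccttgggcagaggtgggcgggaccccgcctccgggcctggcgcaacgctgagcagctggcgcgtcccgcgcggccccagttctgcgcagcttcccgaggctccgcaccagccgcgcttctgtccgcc
This window held 2 overlapping matches to the response element, whose first bases lie at -208 and -202 from the start, and 1 GAS match at -125. Over all 35116 promoters of the table, 3.57% held the first motif and 7.66% the second. Among the 9 ligand promoters neither motif matched outside CD274. PDCD1LG2 had no promoter sequence available and was not searched.

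PVR (chr19:44643660-44643959, plus strand) and PVRL2 (listed as NECTIN2, chr19:44846047-44846346, plus strand) are shown because their transcripts had opposite patterns across the lines. The capitals mark CpG dinucleotides, the sites of DNA methylation, which was not measured here.
PVR: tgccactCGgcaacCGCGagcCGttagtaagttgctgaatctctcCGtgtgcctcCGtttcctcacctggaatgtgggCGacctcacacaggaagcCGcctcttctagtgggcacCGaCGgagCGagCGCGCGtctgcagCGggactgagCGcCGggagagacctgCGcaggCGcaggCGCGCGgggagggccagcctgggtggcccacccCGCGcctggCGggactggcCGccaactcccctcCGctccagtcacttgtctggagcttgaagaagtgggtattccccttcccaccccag
PVRL2: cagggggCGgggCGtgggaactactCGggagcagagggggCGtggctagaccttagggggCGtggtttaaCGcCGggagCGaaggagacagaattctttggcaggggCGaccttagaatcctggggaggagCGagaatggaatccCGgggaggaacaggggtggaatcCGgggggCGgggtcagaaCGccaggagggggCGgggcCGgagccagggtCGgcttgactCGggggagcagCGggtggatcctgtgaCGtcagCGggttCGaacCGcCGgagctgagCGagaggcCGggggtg
The PVR window held 27 CpG dinucleotides and the PVRL2 window 26, against a median of 14 over all promoters, with quartiles of 4 and 28. PVRL2 held 3 GC boxes (GGGCGG on either strand), a motif found in 45.0% of all promoters, and PVR none. MICA and MICB each held 1 match to the heat shock element core GAANNTTC, at -135 and -139, found in 6.77% of all promoters. These matches describe the letters of the windows only.

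Library totals ran from 24524193 to 76600945 counts. OPM2 dBRD9-A replicate 2 had the lowest total and stood apart from the other libraries. Its genes deviated from the group mates with an SD of 0.90 on the log2 scale, against 0.15 to 0.26 in the 9 libraries of the other groups. Its deviations correlated with GC content across genes (Spearman -0.68 over 11323 genes, which are not independent replicates). That relation was not confined to this library. In the 9 libraries of the other groups the correlation ran from -0.57 to 0.62, in H929 dBRD9-A replicates 1 and 2. The values of the tested ligands in OPM2, and of the list genes called there, are therefore given with and without OPM2 dBRD9-A replicate 2. All 7 plasma cell markers on the list used (SDC1, CD38, TNFRSF17, IRF4, PRDM1, XBP1 and MZB1) exceeded 1 CPM, which are counts scaled to the library total with TMM factors, in every group. Their summed level was 4793 to 5582 CPM in OPM2 with DMSO and 3667 to 5086 with dBRD9-A, and 6016 to 6640 CPM in H929 with DMSO and 5149 to 5379 with dBRD9-A. The groups of H929 did not overlap, and the part of this lower sum in the results was not tested. With dBRD9-A 1 of the 7 fell in OPM2, where 7.34% of all genes tested fell, and 1 in H929, where 5.67% fell. MZB1 fell in OPM2 (log2 fold change -1.57 ± 0.19, and -1.37 without replicate 2). IRF4 fell in H929 (-0.72 ± 0.21, called in 11 of 24 alternatives) and was at -0.62 ± 0.21 in OPM2, where it was not called (adjusted p = 0.0643 by edgeR). Without OPM2 dBRD9-A replicate 2, 2 of the 7 fell and 1 rose in OPM2, where 15.6% of all genes fell and 16.1% rose. In H929 3 of the 7 then fell and none rose, where 16.5% of all genes fell and 19.2% rose.

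Per length, CD47 was the most abundant ligand transcript in all 4 groups. Its mean was 15.7 ± 1.18 CPM per kb in OPM2 with DMSO and 12.9 ± 0.99 in H929 with DMSO (SD, n = 3 each, as throughout). In OPM2 with DMSO PVR followed at 12.7 ± 0.27 CPM per kb, then ULBP3 at 0.605 ± 0.075, each clear of its neighbours. MICB (0.342), ULBP1 (0.229), CD274 (0.137), MICA (0.134) and PVRL2 (0.107) came next with ranges that overlapped from one to the next, and PDCD1LG2 (0.00773) and ULBP2 (0.00679) were last. In these bulk libraries fewer cells with a transcript and less of it per cell cannot be told apart. OPM2 with DMSO carried 2 ligand transcripts at a high level per length and 8 at a low one.

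In H929 with DMSO the order after CD47 was PVRL2 (1.88 ± 0.40 CPM per kb), ULBP3 (1.30 ± 0.38) and MICA (0.879 ± 0.046), whose ranges overlapped from one to the next. MICB (0.663), ULBP1 (0.315) and CD274 (0.133) followed, the ranges of MICB and ULBP1 clear of both neighbours. PDCD1LG2 (0.112) overlapped CD274, ULBP2 was at 0.0168, and PVR was last without a single count. With dBRD9-A CD274 moved from the sixth to the third place in OPM2, at 0.587 ± 0.179 CPM per kb, and PVRL2 to the fourth at 0.382 ± 0.235, although both overlapped a neighbour. In H929 PVRL2 stayed in the second place at 4.41 ± 0.72 CPM per kb, now clear of ULBP3.

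**Figure D1:**
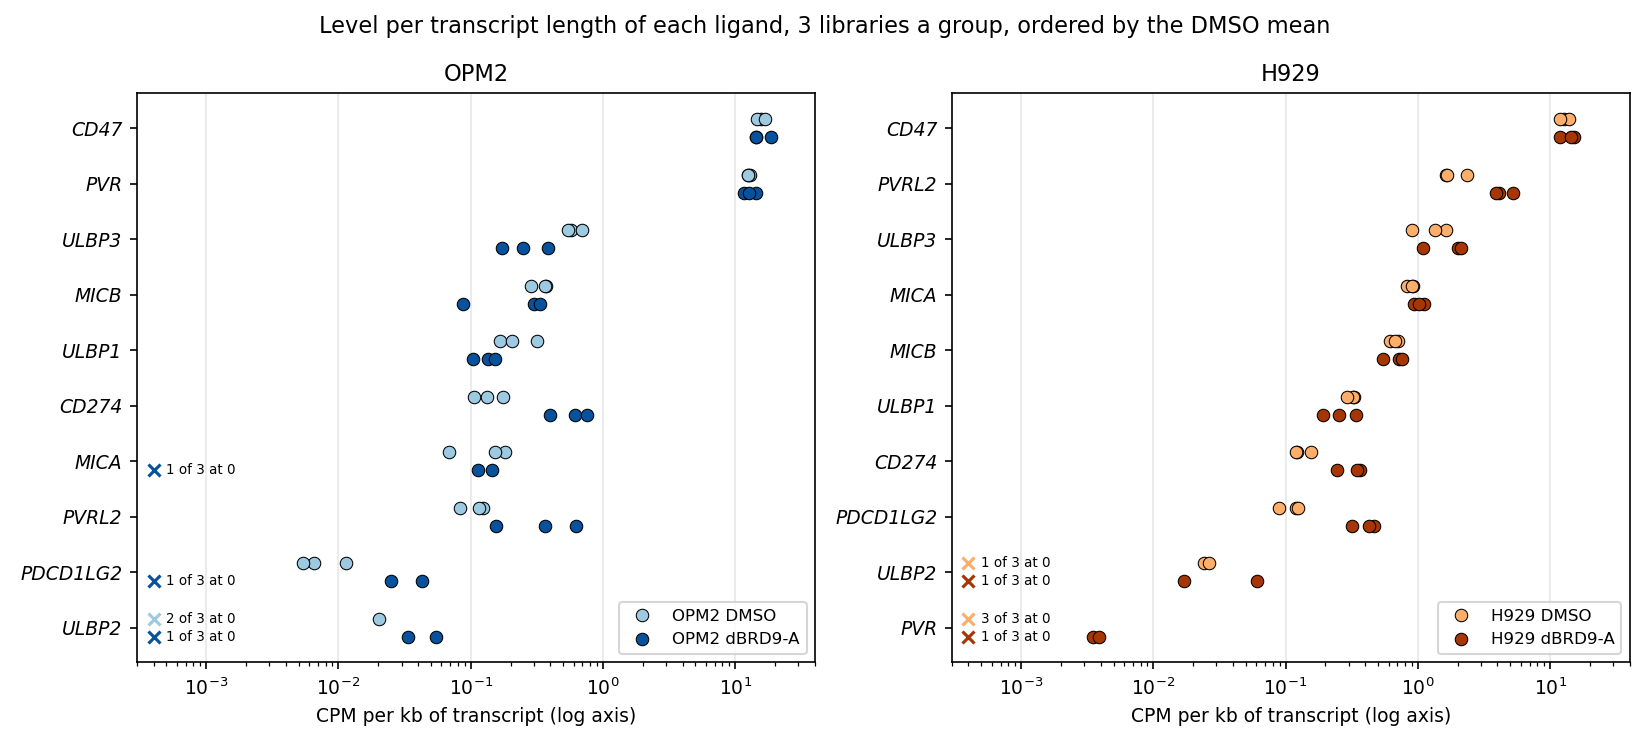
Level of each ligand per transcript length (CPM per kb, log axis) in OPM2 and in H929, 1 point per library, light for DMSO and dark for dBRD9-A, with crosses at the left edge for libraries without counts. CD47 is highest in both lines, PVR is next in OPM2 and last in H929, where it has 0 counts in all 3 DMSO libraries.

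The first comparison asked how the lines differ before treatment. A gene was called where the adjusted p of edgeR's quasi-likelihood test, adjusted by the Benjamini-Hochberg method over all 16408 genes tested, was under 0.05 and the absolute log2 fold change at least 1. By that rule 21.4% of all genes were higher in H929 and 15.0% lower. Of the 9 ligands tested, 4 were called higher in H929 (MICA, ULBP3, PVRL2 and PDCD1LG2) and 1 lower (PVR). The second comparison, dBRD9-A against DMSO within each line, used the adjusted p alone. In OPM2 10.1% of all genes rose and 7.34% fell, and of the 9 ligands 2 rose (CD274 and PVRL2) and none fell. At an unadjusted p under 0.05 there were 5 ligands, and DESeq2 called 2. In H929 7.33% of all genes rose and 5.67% fell, and 3 ligands rose (CD274, PDCD1LG2 and PVRL2) and none fell, with 3 at an unadjusted p under 0.05 and 3 called by DESeq2. Without OPM2 dBRD9-A replicate 2, 16.1% of all genes rose and 15.6% fell in OPM2, and the ligands that rose were 3, with PDCD1LG2 added.

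**Figure D2:**
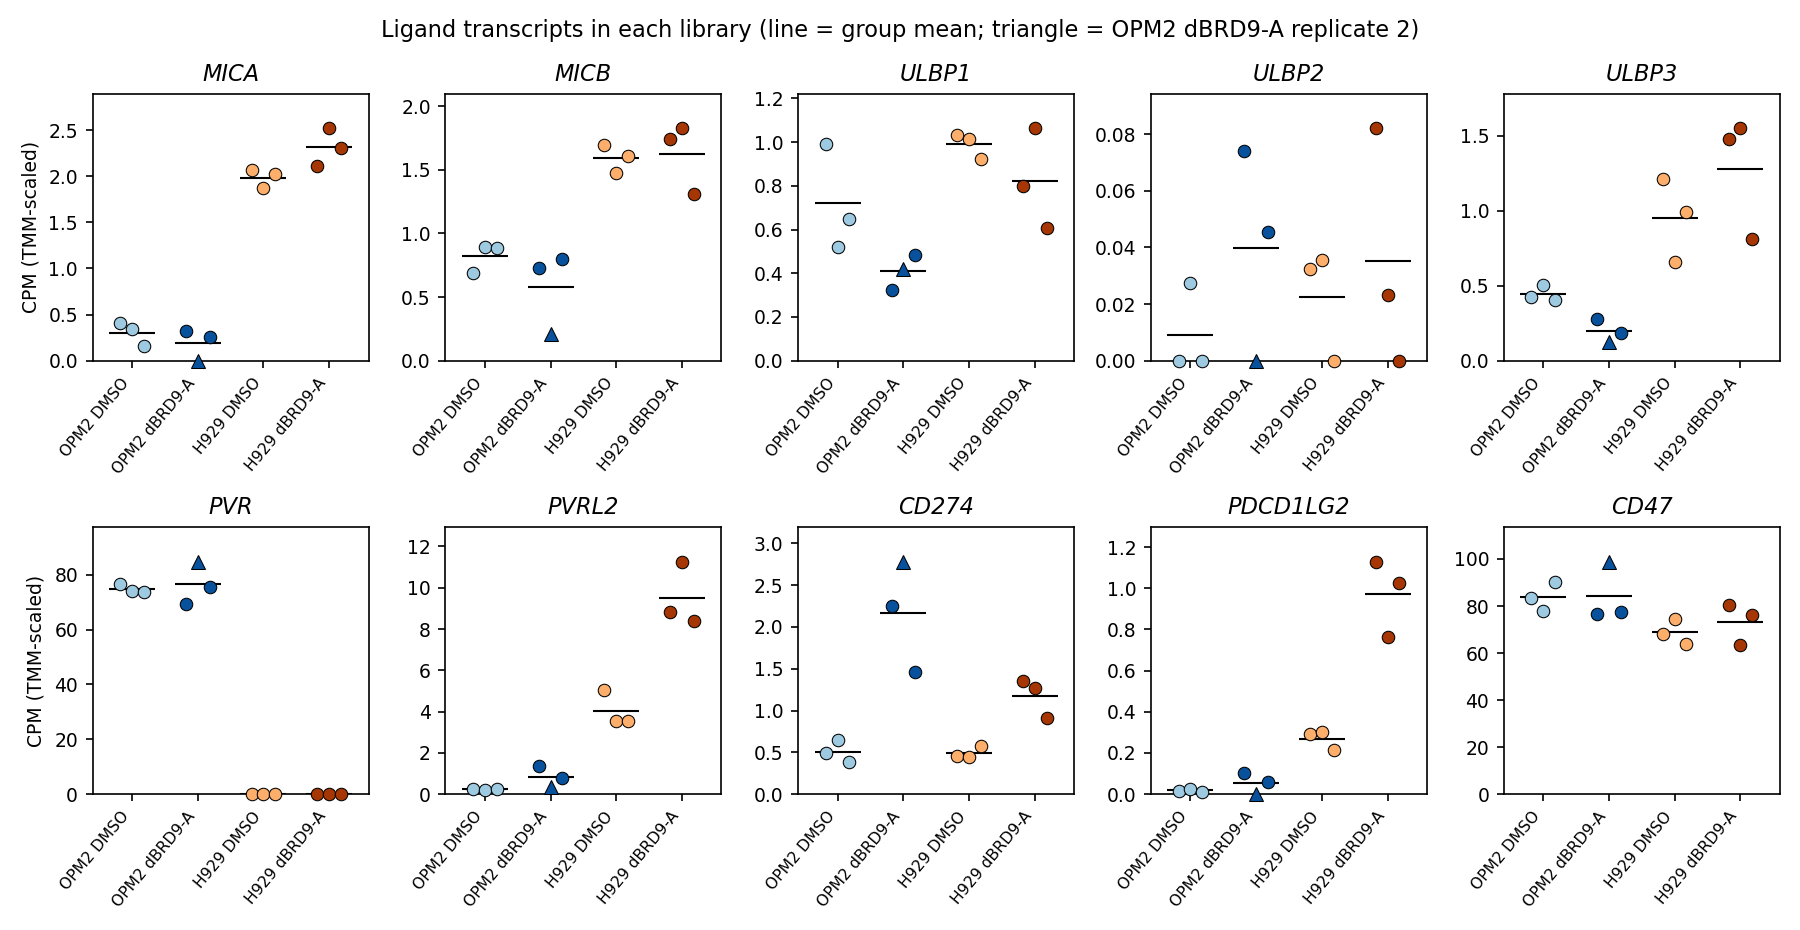
CPM of each ligand in every library (linear axes from 0, scaled per gene), by group, with a line at the group mean and a triangle for OPM2 dBRD9-A replicate 2. CD274 is higher in all dBRD9-A libraries than in any DMSO library of the same line, PVR is confined to OPM2 apart from 2 counts, and CD47 lies between 63.3 and 98.8 CPM throughout.

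Among the NKG2D ligands, MICA and ULBP3 were higher in H929, and none of the 4 tested was called with dBRD9-A in either line. MICA measured 0.408, 0.343 and 0.156 CPM in replicates 1, 2 and 3 of OPM2 with DMSO and 2.06, 1.87 and 2.02 in those of H929 with DMSO. All H929 libraries lay above all OPM2 libraries. The log2 fold change was 2.72 ± 0.44 (SE, adjusted p = 0.000161 by edgeR). With dBRD9-A MICA was at 0.325, 0 and 0.257 CPM in OPM2, within the DMSO range apart from replicate 2, where a count of 0 allows up to 0.126 CPM. MICA in OPM2 thus had a log2 fold change of -0.37 ± 0.51 with replicate 2 and -0.04 ± 0.35 without it. In H929 with dBRD9-A it was at 2.11, 2.52 and 2.31 CPM, all above the DMSO libraries, but the log2 fold change of 0.22 ± 0.38 was not called (adjusted p = 0.775 by edgeR).

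MICB, the close relative of MICA, measured 0.691, 0.891 and 0.882 CPM in OPM2 with DMSO and 1.69, 1.48 and 1.61 in H929 with DMSO. The groups did not overlap, and the log2 fold change of 0.95 ± 0.31 had an adjusted p of 0.0186 by edgeR but lay under the fold threshold. It passed that threshold without OPM2 DMSO replicate 2 or replicate 3, at 1.01 each. With dBRD9-A the values were 0.725, 0.211 and 0.800 CPM in OPM2 and 1.74, 1.83 and 1.31 in H929, overlapping DMSO in both lines. OPM2 dBRD9-A replicate 2 was the low value, and the log2 fold change in OPM2 was -0.40 ± 0.33 with it and -0.12 ± 0.23 without it.

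The levels of MICA and MICB are uncertain because the files list them many times. MICA had 25 entries and MICB 24, all numbered copies of a few accessions, as had 782 symbols in all. Copies of 1 accession had different counts. For the MICA accession used, the largest copy held 42.2 to 56.5% of the counts over its copies in the OPM2 libraries with counts and 79.7 to 91.3% in H929. In replicate 3 of OPM2 with DMSO and with dBRD9-A the largest copy was not the one used. There the copy used had 12 of 40 and 17 of 45 counts. For MICB the largest copy held 77.2 to 87.2% in OPM2 and 92.1 to 95.4% in H929. The share thus differed between the lines, and the sources used here do not state how reads matching several near-identical copies were counted.

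Summing the copies, an alternative added after the data were seen, raised MICA in OPM2 with DMSO to 0.642 ± 0.108 CPM and in H929 with DMSO to 2.31 ± 0.23. The log2 fold change between the lines fell to 1.85 ± 0.46 and was still called (adjusted p = 0.00415 by edgeR). For MICB it was 0.80 ± 0.31 (adjusted p = 0.0414 by edgeR), under the fold threshold. A difference in level and a difference in how well the reads of a line match a copy cannot be told apart here.

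**Figure D3:**
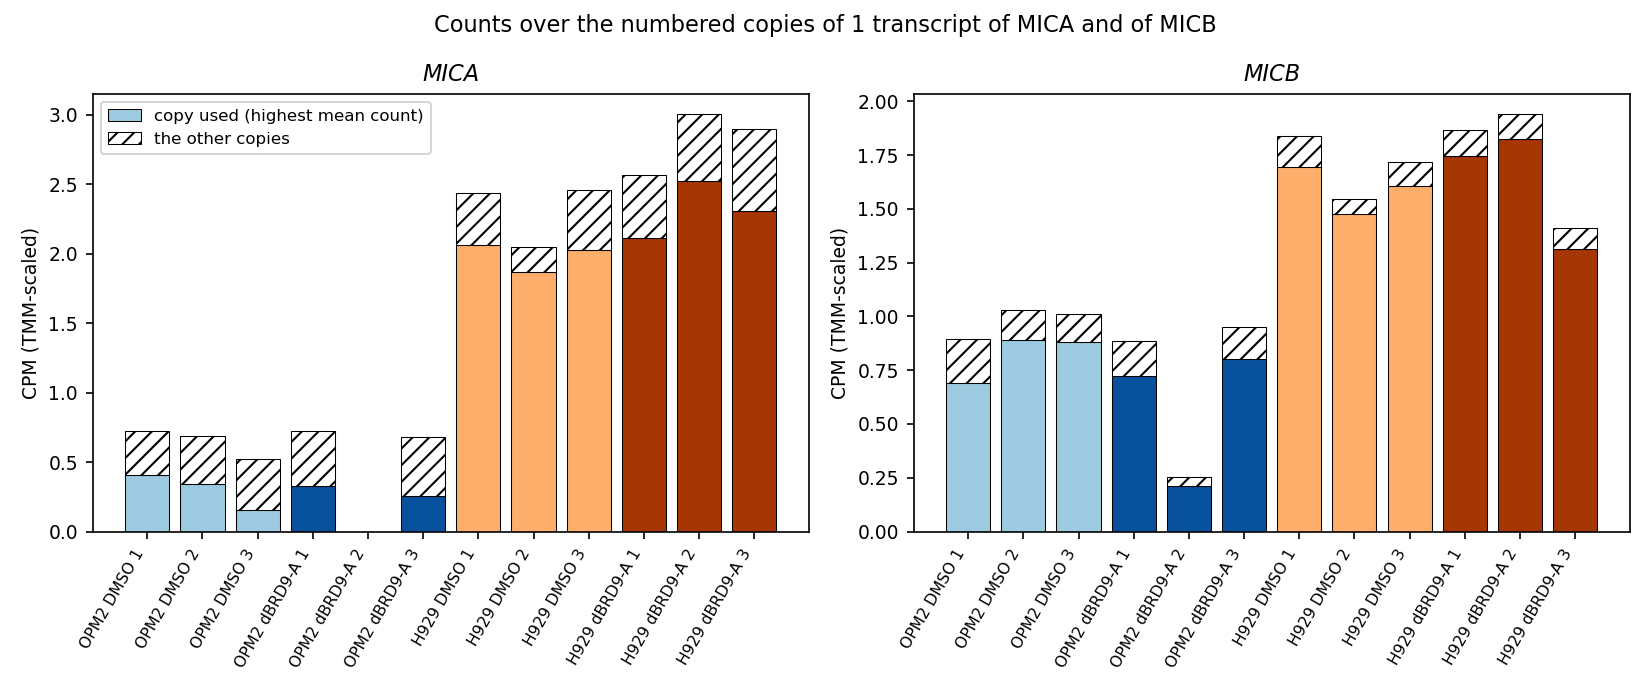
CPM of MICA and MICB in each library, filled for the numbered copy used and hatched for the other copies of the same accession. The hatched part is the larger share of MICA in several OPM2 libraries and the smaller in H929, and both genes remain higher in H929 after summing.

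ULBP1 did not separate the lines. It measured 0.990, 0.521 and 0.649 CPM in OPM2 with DMSO and 1.03, 1.01 and 0.921 in H929 with DMSO, so that the highest OPM2 library lay among the H929 libraries (log2 fold change 0.46 ± 0.29, adjusted p = 0.19 by edgeR). With dBRD9-A it was at 0.325, 0.421 and 0.483 CPM in OPM2, all below the DMSO libraries. The log2 fold change of -0.81 ± 0.32 was not called (adjusted p = 0.0987 by edgeR) and was -0.83 without replicate 2. By limma-voom with library weights it was -0.98 and called (adjusted p = 0.0159). In H929 the values were 0.800, 1.06 and 0.606 CPM and overlapped DMSO.

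ULBP3 measured 0.424, 0.507 and 0.402 CPM in OPM2 with DMSO and 1.21, 0.659 and 0.994 in H929 with DMSO. The groups did not overlap, and the log2 fold change was 1.10 ± 0.33 (adjusted p = 0.0129 by edgeR). That call rested on H929 DMSO replicate 1, without which the value was 0.86, and it fell under the fold threshold with library size alone (0.98) and with a GC trend removed (0.93). With dBRD9-A ULBP3 was at 0.281, 0.126 and 0.181 CPM in OPM2, all below DMSO, and at 1.48, 1.55 and 0.808 in H929, which overlapped DMSO. Neither value was called (log2 fold change -1.08 ± 0.39, adjusted p = 0.0763 in OPM2, and 0.41 ± 0.32, adjusted p = 0.458 in H929, both by edgeR). In OPM2 with dBRD9-A these values rest on 34 counts over the group, of which replicate 2 gave 3, and without it the log2 fold change was -0.95 ± 0.40 and not called.

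ULBP2 had 0 to 5 counts in every library, 2, 8, 4 and 5 counts over OPM2 with DMSO, OPM2 with dBRD9-A, H929 with DMSO and H929 with dBRD9-A, and was not tested. The other genes of the NKG2D ligand family on the list used, RAET1E, RAET1G and RAET1L, did not pass the filter either. Of 7 genes for enzymes that release NKG2D ligands from the cell surface, such as ADAM10 and ADAM17, 5 were tested and none was called in either treatment comparison. MMP2 and MMP9 did not pass the filter. Without OPM2 dBRD9-A replicate 2, PDIA6 was called lower in OPM2 (log2 fold change -0.33), where 15.6% of all genes fell. In H929, where 19.2% of all genes then rose, ADAM9 was called higher (0.34), as was MMP9 (2.73, on 8 counts over the DMSO group and 46 with dBRD9-A). MMP9 was left out of the main fit by the filter but was fitted in 11 alternatives, and was called in H929 in 9 of them.

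The DNAM-1 ligands showed the sharpest contrast between the lines. PVR measured 76.7, 74.2 and 73.7 CPM in OPM2 with DMSO and had no count in any H929 library with DMSO. Set against a floor of 3 counts over the H929 group, 0.0173 CPM, PVR was at least 4332-fold higher in OPM2 (15981 counts over the group, adjusted p = 1.81e-10 by edgeR). With dBRD9-A OPM2 held 69.3, 84.7 and 75.4 CPM, a range that takes in the DMSO values (log2 fold change 0.03 ± 0.14, adjusted p = 0.913 by edgeR, and -0.06 ± 0.10 without replicate 2). In H929 with dBRD9-A the counts were 1, 1 and 0, under the floor, and no fold is given.

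PVR is listed as 4 transcripts. The shortest, of 1643 bases against 5903 for the one used, had 33.1 to 34.6% of the counts of the one used in OPM2 with DMSO. With dBRD9-A it had 32.3, 16.7 and 33.3%, and the low value was that of replicate 2.

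PVRL2 showed the opposite order. It measured 0.267, 0.178 and 0.247 CPM in OPM2 with DMSO and 5.05, 3.52 and 3.56 in H929 with DMSO, with every H929 library above every OPM2 library (log2 fold change 4.13 ± 0.38, adjusted p = 1.28e-06 by edgeR). With dBRD9-A PVRL2 rose in both lines. In OPM2 the transcript used reached 1.35, 0.337 and 0.785 CPM, all above DMSO, with replicate 2 the lowest on 8 counts. The log2 fold change was 1.93 ± 0.39 (adjusted p = 0.00685 by edgeR), and 2.19 ± 0.31 without replicate 2. Fitted on the OPM2 libraries alone, where 3.68% of all genes rose, the value was 1.87 ± 0.52 and not called (adjusted p = 0.0854 by edgeR).

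In H929 PVRL2 reached 8.82, 11.3 and 8.37 CPM with dBRD9-A, again all above DMSO. The log2 fold change was 1.23 ± 0.30 (adjusted p = 0.0214 by edgeR). The call was lost in 5 of 24 alternatives, namely without H929 DMSO replicate 2 or 3, without H929 dBRD9-A replicate 1 or 2, and with counts summed over transcripts, where the value was 1.12 to 1.31 and the adjusted p at most 0.106 by edgeR. The second PVRL2 transcript, of 2856 bases against 2151 for the one used, had 72.6 to 82.8% of the counts of the one used in H929 with DMSO and 73.1 to 76.5% with dBRD9-A. In OPM2 this second transcript had 15, 10 and 18 counts with DMSO and 77, 0 and 42 with dBRD9-A. On it OPM2 dBRD9-A replicate 2 thus lay below every DMSO library.

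Taking PVR and PVRL2 as a pair, PVR made up 99.2% ± 0.16 of their summed level per length in OPM2 with DMSO and 97.0% ± 2.00 with dBRD9-A. In H929 PVRL2 made up all of it with DMSO and 99.9% with dBRD9-A. The lines thus carried different members of the pair, and the rise of PVRL2 in OPM2 left it at 1.08 to 5.06% of the pair.

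Of 4 related nectin genes, PVRL1, PVRL3, PVRL4 and CADM1, all were tested. PVRL1, which encodes nectin-1, a ligand of CD96, was higher in H929 (60.4 ± 9.2 against 291 ± 75 CPM, log2 fold change 2.27 ± 0.27) and rose in OPM2 with dBRD9-A to 114 ± 37 CPM (0.92 ± 0.26, adjusted p = 0.0314 by edgeR). That rise was called in 16 of 24 alternatives and was 1.11 without replicate 2. No other nectin gene was called in either treatment comparison.

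Both PD-1 ligands were low before treatment. With dBRD9-A CD274 rose in both lines, and PDCD1LG2 rose in H929 and was not called in OPM2. CD274 measured 0.487, 0.644 and 0.389 CPM in OPM2 with DMSO and 0.452, 0.445 and 0.578 in H929 with DMSO. The lines overlapped, with a log2 fold change of -0.04 ± 0.31 (adjusted p = 0.914 by edgeR) whose sign turned with a GC trend removed (0.14) and by limma-voom (0.05). With dBRD9-A CD274 was at 2.25, 2.78 and 1.46 CPM in OPM2 and at 1.35, 1.27 and 0.909 in H929. In each line all treated libraries lay above all DMSO libraries, and the highest OPM2 value was that of replicate 2.

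The log2 fold change of CD274 was 2.07 ± 0.30 in OPM2 (adjusted p = 0.00096 by edgeR) and 1.86 ± 0.27 without replicate 2, and it was called in 24 of 24 alternatives. In H929 it was 1.25 ± 0.31 (adjusted p = 0.0194 by edgeR). There the call was lost without H929 DMSO replicate 1 or 2 and without H929 dBRD9-A replicate 1 or 2, with values of 1.17 to 1.23 and an adjusted p of at most 0.0801 by edgeR. All 3 listed CD274 transcripts had similar counts, 87.1 to 100% of the one used.

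PDCD1LG2 was near its detection limit in OPM2, with 1, 2 and 1 counts in DMSO and 7, 0 and 4 with dBRD9-A. The 0 was in replicate 2, where 1 count is worth 0.0421 CPM, and the log2 fold change of 1.74 ± 0.71 was not called (adjusted p = 0.111 by edgeR). Without replicate 2 it was 2.01 ± 0.67 and called (adjusted p = 0.0336 by edgeR), as it was by limma-voom with library weights (1.91). In H929 the values were 0.290, 0.303 and 0.217 CPM with DMSO and 1.13, 0.763 and 1.03 with dBRD9-A. All treated H929 libraries lay above all DMSO libraries, and the log2 fold change was 1.84 ± 0.37 (adjusted p = 0.00763 by edgeR), called in 23 of 23 alternatives. Between the lines in DMSO PDCD1LG2 was higher in H929 (log2 fold change 3.71 ± 0.57, adjusted p = 0.000116 by edgeR), without overlap.

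CD274 and PDCD1LG2 are neighbours in the RefSeq gene order. The genes that flank the pair, looked up after the values were seen, are PLGRKT and RIC1. Neither was called with dBRD9-A, with log2 fold changes of 0.11 and 0.24 for PLGRKT and -0.20 and -0.11 for RIC1 in OPM2 and H929. Next to PVR, CEACAM19 averaged 0.269 CPM in OPM2 with DMSO and had no count in H929 with DMSO, and the other 3 genes within 2 places of PVR did not pass the filter. Next to PVRL2, TOMM40 fell with dBRD9-A in both lines (log2 fold change -0.95 in OPM2 and -0.85 in H929), and the other 3 genes within 2 places did not pass the filter.

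CD47 did not pass the test in any comparison. It measured 83.5, 77.7 and 90.3 CPM in OPM2 with DMSO and 68.1, 74.5 and 64.0 in H929 with DMSO. The groups did not overlap, and the log2 fold change was -0.28 ± 0.13 (adjusted p = 0.0838 by edgeR). With dBRD9-A it was at 76.8, 98.8 and 77.2 CPM in OPM2 and at 80.5, 63.3 and 76.3 in H929, overlapping DMSO in both lines. The log2 fold changes were 0.01 ± 0.13 in OPM2, -0.13 ± 0.11 there without replicate 2, and 0.09 ± 0.13 in H929. QPCTL, which encodes the enzyme that modifies CD47 for SIRP alpha binding, measured 30.8, 17.5, 37.7 and 32.6 CPM on average in OPM2 with DMSO and dBRD9-A and H929 with DMSO and dBRD9-A, and was not called (-0.80 ± 0.36 in OPM2 and -0.21 ± 0.36 in H929). In OPM2 without replicate 2 it was -0.41 and called, as in 3 of 24 alternatives in all.

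Over the 12 libraries, the genes whose log2 CPM followed that of CD47 most closely were C1GALT1 (Pearson r = 0.943) and LOC100507557 (r = 0.931), of 11467 genes with a mean of at least 1 log2 CPM. These values share the libraries and their scaling, and no p is given. The other ligands were too low or, for PVR, absent in too many libraries for this description.

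**Figure D4:**
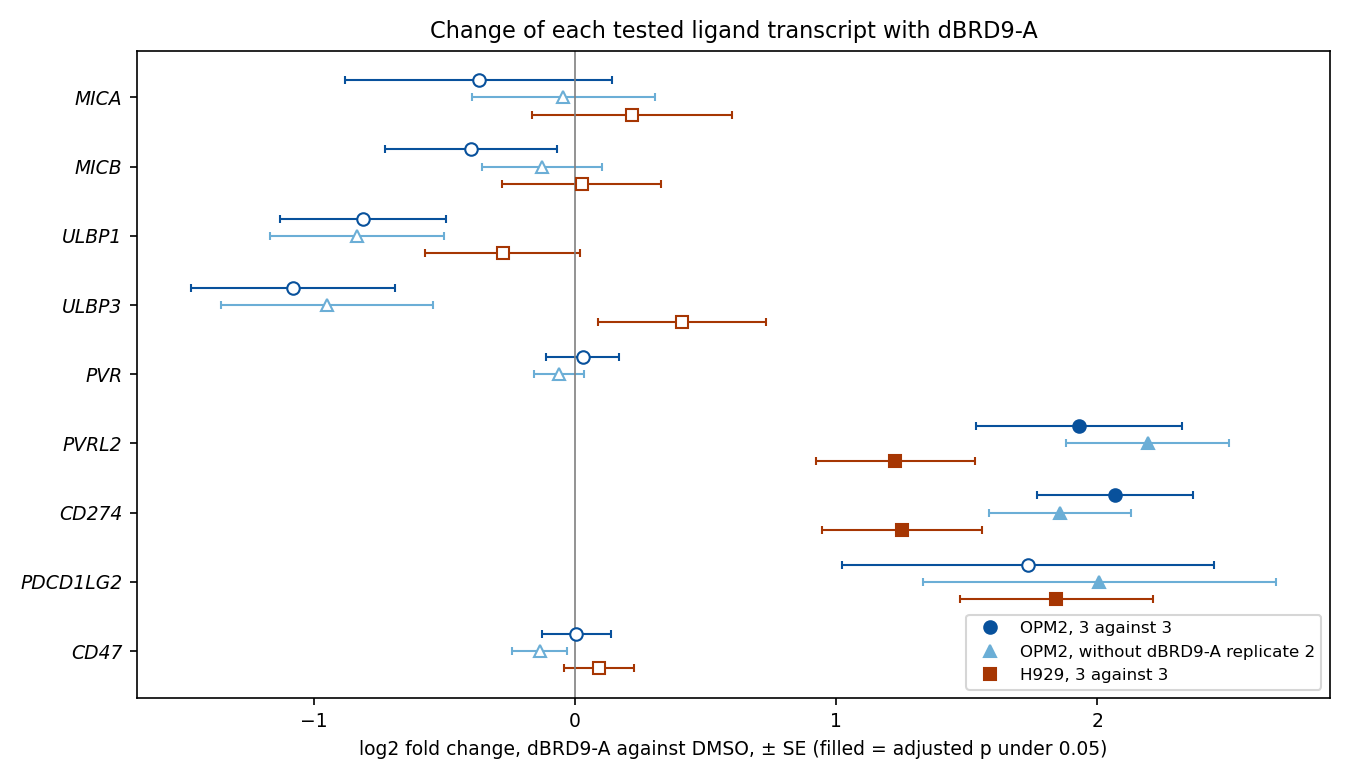
Log2 fold change with dBRD9-A for the 9 tested ligands, with SE bars, in OPM2 (circles), in OPM2 without dBRD9-A replicate 2 (triangles) and in H929 (squares); filled symbols have an adjusted p under 0.05. CD274 and PVRL2 are filled in all 3 rows, PDCD1LG2 in 2, and no other ligand in any; PVR has no square because H929 held 2 counts in all.

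The third comparison asked whether the response differed between the lines, as H929 minus OPM2, which called 0.579% of all genes. No ligand was called by edgeR, by DESeq2 or by limma-voom, and 1 had an unadjusted p under 0.05. That was ULBP3, with -1.08 in OPM2 and 0.41 in H929 and a difference of 1.49 ± 0.51 (adjusted p = 0.347 by edgeR). The difference was -0.81 ± 0.42 for CD274 (adjusted p = 0.626 by edgeR) and -0.70 ± 0.49 for PVRL2 (adjusted p = 0.705 by edgeR). These errors do not settle whether the rise in H929 was smaller, similar or larger. The larger values in OPM2 are thus not shown to differ from those in H929.

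Beyond the 10 ligands, 8 lists held 66 genes of the same pathways, of which 56 were tested. With dBRD9-A 8 rose and 4 fell in OPM2, and 8 rose and 2 fell in H929. Over all genes 10.1% rose and 7.34% fell in OPM2, and 7.33% rose and 5.67% fell in H929. The numbers called in each list below are to be read beside these shares. The median log2 fold change of the 56 was 0.05 in OPM2 and 0.16 in H929, against 0.03 and -0.002 over all genes. Without OPM2 dBRD9-A replicate 2 the counts were 12 and 8 in OPM2, where 16.1% of all genes rose and 15.6% fell. In H929, which shares the estimate of spread, they were 18 and 6, where MMP9 is counted besides the 56 and 19.2% of all genes rose and 16.5% fell. The difference of the responses called none of the 56, and without that library 3 of them, against 3.04% of all genes.

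Of the B7 family and other T cell checkpoint ligands, 13 of 17 were tested, and CD80, VTCN1, FGL1 and IDO1 did not pass the filter. In OPM2 2 rose and none fell, and in H929 3 rose and 1 fell. HHLA2, a B7 family member, rose from 0.158 ± 0.054 to 2.91 ± 2.38 CPM in OPM2 (log2 fold change 4.15 ± 0.60, adjusted p = 0.00104 by edgeR, 3.28 without replicate 2). In H929 it rose from 0.0694 ± 0.0189 to 0.509 ± 0.255 CPM (2.81 ± 0.74, called in 19 of 24 alternatives). CEACAM1, which encodes an inhibitory adhesion receptor that also binds TIM-3, rose from 1.23 ± 0.40 to 10.7 ± 7.65 CPM in OPM2 (3.11 ± 0.63, adjusted p = 0.00671 by edgeR, 2.45 without replicate 2) and from 1.60 ± 0.85 to 7.23 ± 3.31 CPM in H929 (2.17 ± 0.61, called in 16 of 24 alternatives). CD276 (B7-H3) rose in H929 from 3.76 ± 0.53 to 8.78 ± 1.54 CPM (1.22 ± 0.18, adjusted p = 0.00145 by edgeR). ICOSLG, the ligand of the costimulatory receptor ICOS, fell in H929 from 22.0 ± 1.9 to 12.1 ± 0.95 CPM (called in 16 of 24 alternatives), and was at 0.0315 CPM in OPM2 with DMSO.

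Among 12 genes of the interferon gamma pathway and the proteins that stabilise CD274, all tested, 3 rose in OPM2 and 4 in H929 and none fell. STAT2 rose in both lines, from 69.4 ± 9.0 to 136 ± 51 CPM in OPM2 (log2 fold change 0.97 ± 0.23, adjusted p = 0.0149 by edgeR, 1.24 without replicate 2) and from 64.7 ± 7.1 to 125 ± 4.8 CPM in H929 (0.95 ± 0.23, adjusted p = 0.0205 by edgeR). Its partner IRF9 rose by 0.68 ± 0.19 in OPM2 and 0.88 ± 0.19 in H929 on the log2 scale, and STAT3 by 0.67 ± 0.12 and 0.44 ± 0.12. Without replicate 2 the values in OPM2 were 0.85 for IRF9 and 0.78 for STAT3, and IRF9 there was called in 14 of 24 alternatives. JAK1 rose in H929 (0.38 ± 0.11, called in 13 of 24 alternatives). The median of the list was 0.29 in OPM2 and 0.41 in H929. IRF1 was not called in either line, nor were CMTM6 and CMTM4, whose proteins protect CD274 from degradation (CMTM6 -0.03 ± 0.10 in OPM2 and 0.19 ± 0.10 in H929).

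Of 11 genes listed as ligands of other activating NK receptors, 10 were tested, all but SLAMF6, and 2 rose and 3 fell in OPM2 while 1 fell in H929. The list also holds CLEC2D, a ligand of an inhibitory receptor, which was 1 of the 2 that rose. SLAMF7, a self-ligand of plasma cells and NK cells and an antibody target in myeloma, fell from 468 ± 24 to 151 ± 15 CPM in OPM2 (log2 fold change -1.63 ± 0.15, adjusted p = 4.54e-05 by edgeR, -1.66 without replicate 2) and from 135 ± 24 to 88.2 ± 11.8 CPM in H929 (-0.62 ± 0.15, adjusted p = 0.0161 by edgeR). ICAM1, a ligand of the integrin LFA-1, rose in OPM2 from 0.134 ± 0.084 to 0.453 ± 0.175 CPM (1.88 ± 0.41, and 2.05 without replicate 2). CLEC2D, whose product binds the inhibitory receptor KLRB1 (CD161), rose there from 11.2 ± 0.16 to 19.0 ± 3.8 CPM (0.76 ± 0.23, adjusted p = 0.0431 by edgeR, called in 14 of 24 alternatives, 0.58 without replicate 2). ICAM2, another LFA-1 ligand, fell there by 0.86 on the log2 scale, and NCR3LG1 (B7-H6), a ligand of NKp30, by 0.80, both called in 15 of 24 alternatives. Without replicate 2 they were -0.59 and -0.71. Between the lines in DMSO, ICAM1 was at 61.7 to 83.3 CPM in H929 against 0.0411 to 0.204 in OPM2, and CLEC2B, whose product binds NKp80, at 26.6 to 30.3 CPM in OPM2 and at 3 counts over the H929 group.

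The 9 MHC class I genes and partners on the list were all tested, and with dBRD9-A none was called in OPM2 and 1 rose in H929. That was HLA-F, from 2.16 ± 0.19 to 3.70 ± 0.19 CPM (log2 fold change 0.78 ± 0.22, adjusted p = 0.0459 by edgeR), called in 11 of 24 alternatives. As with MICA, the HLA and TAP genes are listed as numbered copies, 21 for HLA-F, and their levels are uncertain for the same reason. B2M, which has no such copies, was not called (0.36 ± 0.16 in OPM2, 0.09 there without replicate 2, and 0.16 ± 0.16 in H929). Of the 4 genes listed beside CD47 as signals to macrophages, CALR, whose product promotes phagocytosis when at the surface, fell in OPM2 from 1210.3 ± 10.3 to 836 ± 80.8 CPM (-0.53 ± 0.10, adjusted p = 0.00508 by edgeR, -0.63 without replicate 2) and none was called in H929.

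**Figure D5:**
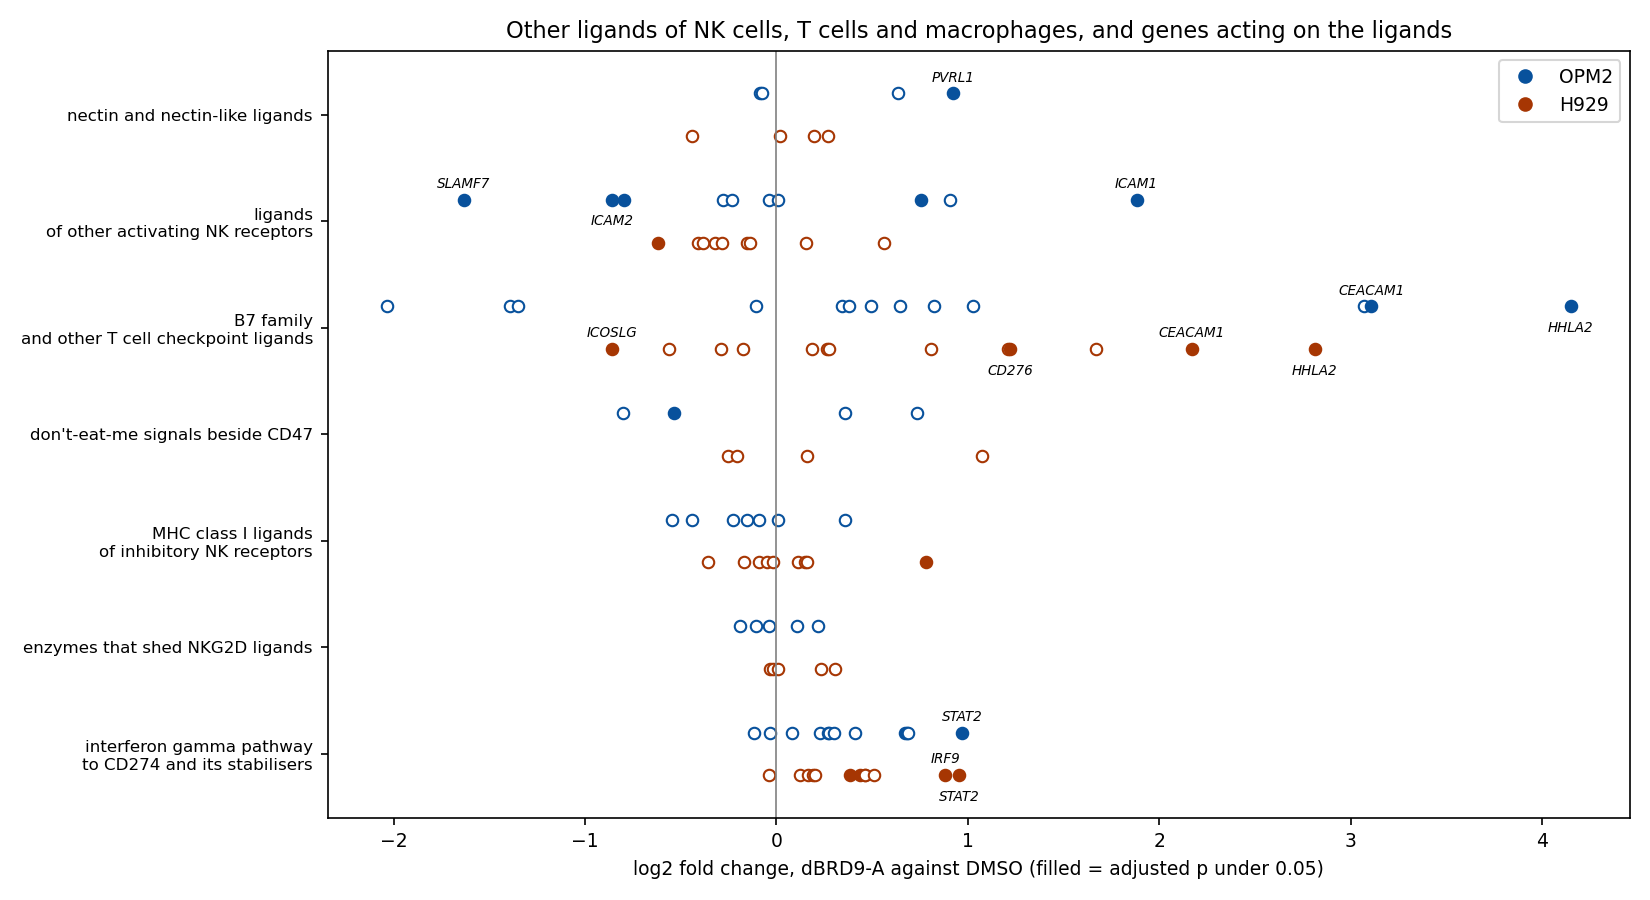
Log2 fold change with dBRD9-A of the tested genes of 7 pathway lists, OPM2 in blue and H929 in orange, filled where the adjusted p was under 0.05; genes with at most 3 counts in both groups are left out. HHLA2 and CEACAM1 lie farthest to the right in both lines among the filled points, and the shedding enzymes have no filled point.

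The lines also held transcripts of receptors for these ligands. The 14 NK and T cell genes on the list summed to 212 to 271 CPM in OPM2 with DMSO and 282 to 379 with dBRD9-A, and to 200 to 226 CPM in H929 with DMSO and 265 to 292 with dBRD9-A, without overlap in either line, mostly from NCAM1, which encodes CD56 and is known in myeloma cells, at 239 CPM in OPM2 and 144 CPM in H929 with DMSO. With dBRD9-A none of the 14 was called in OPM2, and in H929 2 rose (CD2, called in 13 of 23 alternatives, and NCAM1, in 16 of 24) and 1 fell (TIGIT, in 18 of 24). CD3D had 3 counts over the 12 libraries, and KLRK1 (NKG2D), KLRD1 and PDCD1 (PD-1) did not pass the filter. TIGIT was at 0.438 ± 0.049 CPM in OPM2 and at 12.3 ± 2.3 CPM in H929 with DMSO, and with dBRD9-A it fell in H929 to 5.60 ± 0.61 CPM (log2 fold change -1.13 ± 0.28, adjusted p = 0.0204 by edgeR). In OPM2 with dBRD9-A it was at 0.144 ± 0.134 CPM and not called (-1.30 ± 0.42, adjusted p = 0.0527 by edgeR), but it was called without replicate 2 (-1.02), as was PVRIG, the receptor of PVRL2 named above (0.66). For TIGIT the difference of the responses was 0.16 ± 0.49 and not called. CD3E and HCST, which encodes the NKG2D signalling partner DAP10, were at 24.1 ± 1.2 and 22.8 ± 4.1 CPM in H929 with DMSO and at 0.277 ± 0.075 and 0.213 ± 0.135 CPM in OPM2 with DMSO.

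The 6 macrophage and dendritic cell genes summed to 0.211 to 1.14 CPM in OPM2. In H929 they summed to 4.27 to 7.58 CPM with DMSO and 8.23 to 14.9 with dBRD9-A, where CSF1R rose from 2.45 ± 1.33 to 7.76 ± 2.64 CPM (log2 fold change 1.65 ± 0.49, adjusted p = 0.0456 by edgeR, called in 15 of 24 alternatives). The other genes tested were not called in H929, with SIRPA at 0.39, CD14 at -1.05 (10 counts over the DMSO group and 4 with dBRD9-A) and ITGAX at -1.40. The median of the 4 tested was -0.33 there. LYZ and CD163 did not pass the filter. The 3 mature B cell genes summed to at most 1.27 CPM in any library, and MS4A1 and PAX5 did not pass the filter. These markers were listed for other cells that a culture could hold, and the part of other cells in the rise of CD274, PDCD1LG2 and PVRL2 in H929 was not tested.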

How the data were processed

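Per the labels' protocols, libraries came from a stranded mRNA kit. The submitters' processing notes name STAR, featureCounts, hg19 and GRCh37. Versions and the strand setting are not given in the sources used here. It is not known whether reads of genes overlapping on opposite strands were separated. Per the file headers, each deposited file lists 51780 transcripts with counts, FPKM and TPM. The deposited counts are whole numbers without normalisation. The deposited FPKM values served only to recover transcript lengths, and the deposited TPM values were not used further. Counts of the transcript with the highest mean per symbol were filtered with filterByExpr, scaled with TMM factors and tested with edgeR 4.0.16 in R 4.3.3, fitting the mean of each group and a spread per gene shared by the 4 groups, with Benjamini-Hochberg adjustment over all genes tested. SE is the log2 fold change divided by the square root of F. A floor of 3 counts covers counting error only. Alternatives were RLE factors, library size alone, DESeq2 1.42.0, limma-voom (limma 3.58.1) with library weights, other low-count filters, each library left out, a replicate block, a GC trend removed, counts summed over transcripts, only the groups compared and, added after the data were seen, summed numbered copies. The labels do not say that replicates were separate cultures, and p-values thus reflect only the spread among these libraries, which may be technical.

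The ligands and lists were chosen with earlier results of these data known. All 10 ligands are named, with up to 4 called genes per list and comparison, list genes under the filter, QPCTL, CMTM6 and CMTM4. B2M, IRF1 and the neighbouring genes fall outside that rule and were chosen after their values were seen, as were the receptors named among the markers.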

Additional observations from a re-analysis of the deposited data

How the results depend on the processing

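Over 34 values of the ligands, 799 alternatives were run, and 754 kept both the direction and the side of the threshold. The calls that were lost or gained are given above, apart from MICB between the lines, which was called by limma-voom, and ULBP3 between the lines, 0.91 and under it with a GC trend removed and a replicate block. The number of ligands called in OPM2 was 2, and became 4 by limma-voom with library weights and 1 when only the groups compared were fitted. In H929 it was 3, and with each library left out in turn it ran from 1 to 3. Signs turned only in values that were not called. CD274 between the lines was 0.14 with a GC trend removed, 0.17 with that and a replicate block, 0.0467 by limma-voom, and -0.21 to 0.17 with each library left out. PVR in OPM2 was -0.077 by limma-voom and -0.061 to 0.0916 with each library left out. CD47 in OPM2 was -0.0137 without a low-count filter, -0.16 with a GC trend removed, -0.16 with that and a block, -0.11 by limma-voom, -0.00828 with only the groups compared, and -0.134 to 0.0642 with each library left out. MICB in H929 was -0.083 by limma-voom and -0.0275 to 0.19 with each library left out. The difference of the responses of PDCD1LG2, 0.11, ran from -0.23 to 0.74 with each library left out. The causes were not tested.

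The replicate numbers do not pair the samples in the labels, and same-numbered libraries did not all deviate together (correlations of 0.26, -0.03 and -0.06 in OPM2 and -0.03, -0.20 and -0.12 in H929, over 11467 genes). In H929 libraries with different numbers correlated more, at 0.48 for DMSO 1 with dBRD9-A 2, 0.65 for 2 with 3 and 0.55 for 3 with 1, so that no library correlated best with its own number there, and no pairing was crossed. With the replicate number as a block, the ligands called were 5 between the lines, 2 in OPM2, 3 in H929 and 0 for the difference, as without it. Depth limits the lowest ligands most, since 1 count is worth 0.013 to 0.0421 CPM.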
